A study of Mus musculus with 9 samples.

Results

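Sphingosine 1-phosphate (S1P) is a signaling lipid. Sphingosine kinases make it inside the cell, a transporter releases it, and G protein-coupled receptors on the same or neighbouring cells sense it, while a lyase and phosphatases remove it. Lymphatic endothelium is known as a source of the S1P in lymph, which guides lymphocytes out of lymph nodes, and S1P receptors on endothelium are known for their part in junctions and vessel stability. The 8 genes described here make, export, break down or sense S1P. They are Sphk1, Sphk2, Spns2, S1pr1, S1pr2, S1pr3, Sgpl1 and Sgpp1, taken by symbol from the 24321 genes of the expression table, and all 8 symbols were found there.

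The values are RNA-seq of meningeal lymphatic endothelial cells (MLECs) from mice that received PBS (Control), cells of the glioma line GL261 or cells of the melanoma line B16, with 3 libraries per group. The mice were males with a labelled age of 10 weeks, and per the labels a dose was 100000 cells into the cisterna magna, with collection about 3 weeks later for GL261 and 2 weeks later for B16. The methods of the study give this dose and place for a separate model. For the collection of MLECs, its methods and its results section both name injection beneath the dura. The methods give other cell numbers for that site, so site and dose are uncertain. Each library held 10 cells, sorted with antibodies to CD31, CD45 and LYVE-1 from meninges pooled from 6 mice, so the replicates are separate pools of animals. The methods of the study also name LYVE-1, and a span of time that covers both labelled times. Its results section names PDPN instead, and the same time for both tumors. By the labels the tumors differ in time after injection as well as in type, and these cannot be told apart.

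Levels are given as FPKM, which are fragments scaled to the length of the transcript and to the depth of the library, so that levels of different genes are compared per length. The table gives no read counts, and the depth in reads is unknown from it. The number of genes above 0 was 7303, 8688 and 8152 in the Control libraries, and between 8736 and 10852 in the 6 tumor-associated libraries, each above each Control library. Summed over its genes, a library had 652636 to 888312 FPKM. Tbp, a transcription factor gene used by all cells, was listed at 0 in Control replicates 1 and 3 and had 1.31 FPKM in Control replicate 2, against 9.06 to 16.7 in the tumor-associated libraries, so its detection too moved with tumor status. A 0 is therefore given as listed at 0, not as absence of the transcript. No 2 libraries held identical values, and the correlation of log2(FPKM + 1) between 2 libraries lay between 0.765 and 0.927.

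Differences are of log2(FPKM + 1), a scale that makes changes of weakly expressed genes look smaller. They were tested with limma over the 9955 genes that reached 1 FPKM in 3 or more of the libraries, and a gene was called at an adjusted p under 0.05. Of the 8 S1P genes, 6 passed that filter. S1pr2 and S1pr3 did not. Over all genes tested, the median difference between tumor-associated and Control MLECs was 0.20, and it was 0.05 after rescaling each library to the same sum and 0.03 after quantile normalization. Differences relative to this median are therefore also given for S1pr1, Ppap2a and Sptssa.

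The labelled cell type was checked against its markers. All 7 lymphatic markers listed had an FPKM above 0 in every library, and Lyve1, the most abundant, lay between 628 and 1895. Ccl21a was near the floor and missed the filter on low values. It had 0.627 to 2.87 FPKM in Control and 0.138 to 0.408 in tumor-associated libraries. A gate on LYVE-1 or PDPN selects for the product of Lyve1 or Pdpn, so these genes are no independent check. The study's results section describes the sorted cells as positive for CD31, the product of Pecam1, and negative for CD45, the product of Ptprc. Pecam1 and Ptprc are therefore no independent check either. The summed FPKM of the 7 was 2961, 2836 and 2567 in Control, 1036, 797 and 2292 in GL261, and 2511, 913 and 1273 in B16. Flt4, Mmrn1 and Reln fell in tumor-associated MLECs, by 1.80, 2.56 and 2.35 on the log2 scale (limma adjusted p = 0.0160, 0.00543 and 0.0335). Prox1, the transcription factor of lymphatic identity, differed by -2.79 (limma adjusted p = 0.0509). Markers of blood endothelium moved the other way. Of 12 listed, 9 rose and 1 fell, where limma called 3.93% of all genes tested. Their summed FPKM was 1411 to 2281 in Control and 4697 to 8989 in tumor-associated libraries. The most abundant was Plvap, and both defining markers rose, Flt1 by 6.18 and Cd34 by 6.38 on the log2 scale (limma adjusted p = 3.01e-05 and 1.66e-04). Every S1P gene below is measured in libraries that differ in these markers, and their part in the differences was not tested. In bulk samples, fewer cells of a type and less RNA per cell cannot be told apart.

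Other cell types left smaller traces. Of the 5 markers of all endothelium, Pecam1, the most abundant, lay between 150 and 468 FPKM and Cdh5 between 37.9 and 94.0, and they differed by 0.67 and 0.45 on the log2 scale (limma adjusted p = 0.222 and 0.524). Among leukocyte markers, Ptprc and Cd3e were listed at 0 in all 9 libraries, Cd14 was the most abundant, and the summed FPKM of the 9 markers was 65.2 to 225 in Control and 35.1 to 381 in tumor-associated libraries. Control replicate 1 stood apart in mural cell genes, with 505 FPKM of Acta2 and 57.2 of Myh11, against at most 6.34 and 0.0813 in the other libraries. Its summed mural level was 629 FPKM, with Pdgfrb at 3.96 and Rgs5 at 0, and the other libraries had 11.1 to 195, mostly from Kcnj8, the most abundant of the 8 genes. Of the fibroblast markers, Dcn was the most abundant and fell by 4.60 on the log2 scale (limma adjusted p = 0.00110). The fibroblast sum was 22.1, 49.0 and 16.2 FPKM in Control and at most 3.85 in a tumor-associated library, with Col1a1 and Col1a2 at 2.53 or less in each library. Platelet and erythroid markers summed to at most 2.72 FPKM in Control and to between 3.26 and 188 in tumor-associated libraries, and the most abundant was the platelet gene Pf4, at 0 in all Control libraries and GL261 replicate 2 and at 12.7 to 187 in the other tumor-associated libraries. Hbb-b1 and Hba-a1 reached 0.661 and 8.37. Melanoma genes were low, with Mlana, Tyr, Tyrp1 and Mitf listed at 0 throughout and Pmel, the most abundant, at 4.07 in GL261 replicate 2. The glioma markers Gfap, Sox2 and Ptprz1 were listed at 0 throughout, Olig2 had 3.04 in GL261 replicate 1, and Nes, the most abundant, reached 9.08 in B16 replicate 2.

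**Figure D1:**
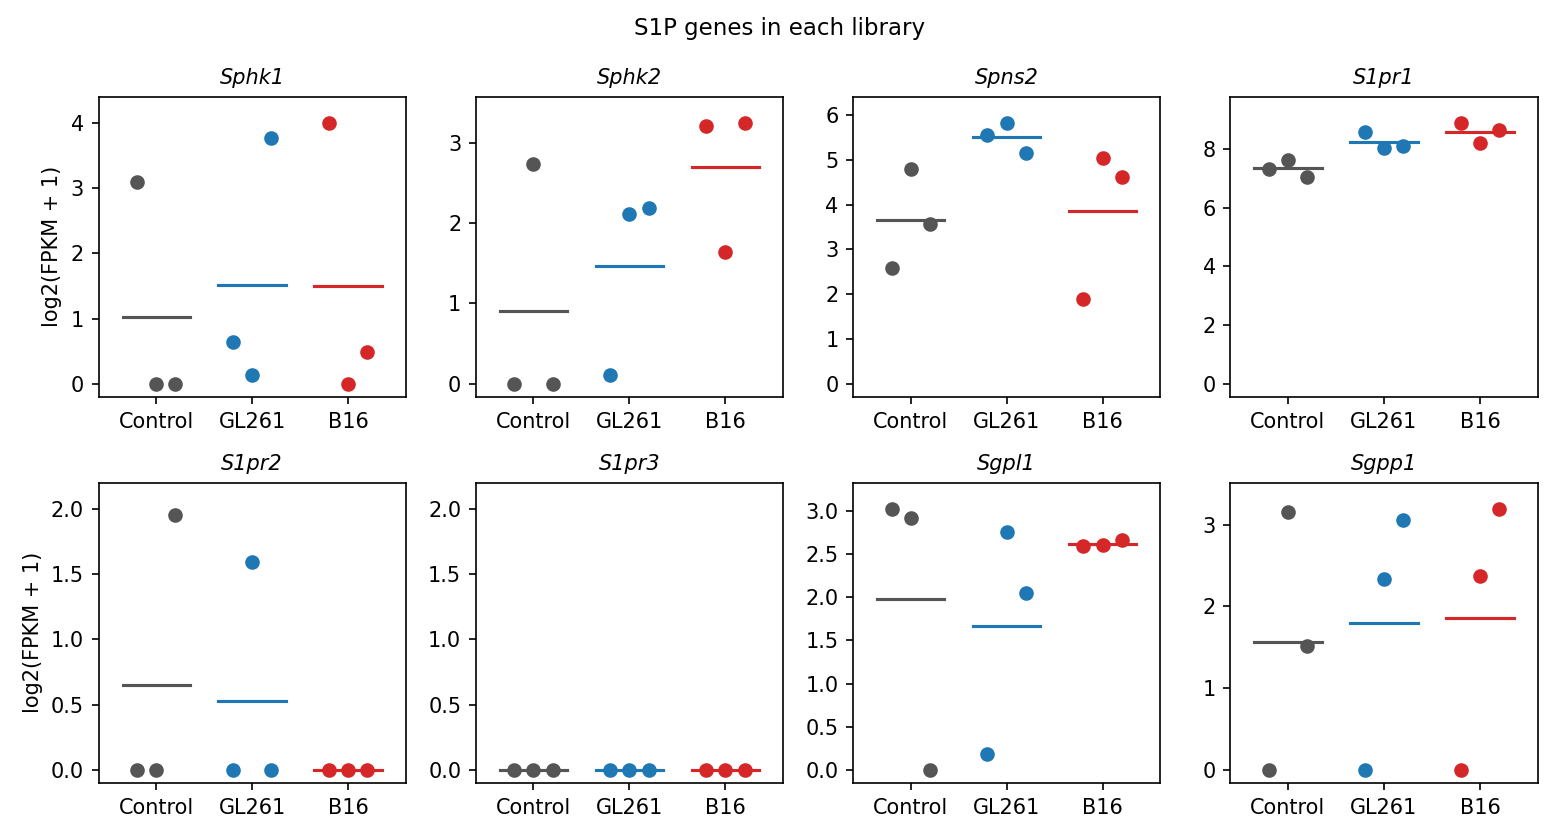
Level of each of the 8 S1P genes as log2(FPKM + 1), with 1 point per library in replicate order and a line at the mean of the 3 libraries of a group. S1pr1 is the most abundant of the 8, with each tumor-associated library above each Control library, and S1pr3 is at 0 in all 9.

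The receptor S1pr1, which couples to Gi and supports endothelial barrier function, was by far the most abundant of the 8 genes. Its FPKM was 160, 197 and 133 in the Control libraries. It was 384, 260 and 274 in GL261 and 477, 292 and 402 in B16. Each of the 6 tumor-associated libraries was above each Control library, while GL261 and B16 overlapped. Control libraries averaged 163 ± 32.2 FPKM (SD, n = 3), GL261 libraries 306 ± 67.7 (SD, n = 3) and B16 libraries 390 ± 93.5 (SD, n = 3). Among the 9955 genes tested, S1pr1 ranked 389 by the mean FPKM over all libraries and 591 by the Control mean.

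Between tumor-associated and Control MLECs, S1pr1 differed by 1.07 on the log2 scale (95% interval 0.46 to 1.68), which is 0.87 above the median of all genes tested. The limma adjusted p was 0.0542, so S1pr1 just missed the threshold. In a two-sided exact permutation test, which tried all 84 choices of 3 libraries as the Control group, p was 0.0119, the smallest these libraries can give. This was 1 of 7 such tests, 1 for each S1P gene with any value above 0. Groups that do not overlap in this way, with tumor-associated MLECs higher, were seen for 6.08% of the genes tested, and for 4.44% with tumor-associated MLECs lower. The call turned on the fit: limma gave an adjusted p of 0.0339 among genes with a mean FPKM of at least 10, and 0.0491 when the 2 tumors entered as separate groups, in a range of 0.0339 to 0.358 over the alternatives.

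The other receptors of the 8 were hardly seen. S1pr2, which couples to a wider range of G proteins, was listed at 0 in 7 libraries, with 2.87 FPKM in Control replicate 3 and 2.01 in GL261 replicate 2. It missed the filter, and its exact permutation p was 0.75. S1pr3 was listed at 0 in all 9 libraries and could not be tested. Of the 2 receptors outside the 8 genes, S1pr5 was also listed at 0 throughout.

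S1pr4, a receptor best known from leukocytes, was present in part of the libraries. Its FPKM was 0, 20.3 and 4.59 in Control, 0.975, 0 and 5.00 in GL261, and 50.2, 28.1 and 13.9 in B16. Each B16 library was above each GL261 library, a pattern seen for 6.66% of the genes tested, while Control overlapped both. The difference between GL261 and B16 was -3.62 on the log2 scale (95% interval -6.17 to -1.07, limma adjusted p = 0.599). S1pr1 made up between 90.5% and 100% of the summed FPKM of the 5 receptor genes in each library, and S1pr4 at most 9.51%.

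Spns2, the transporter that releases S1P from endothelial cells, was the second most abundant of the 8 genes by mean FPKM. It had 4.99, 26.7 and 10.8 FPKM in Control, 45.5, 55.7 and 34.6 in GL261, and 2.74, 32.0 and 23.4 in B16. The GL261 libraries were each above each Control and each B16 library, and B16 and Control overlapped over almost their whole range. Groups that do not overlap with GL261 higher were seen for 13.7% of the genes tested against Control and for 7.13% against B16. B16 replicate 1 was far below the other tumor-associated libraries.

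None of the comparisons called Spns2. The log2 difference was 1.86 between GL261 and Control (95% interval -0.05 to 3.78, limma adjusted p = 0.312), 0.21 between B16 and Control (-1.71 to 2.12, limma adjusted p = 0.943) and 1.65 between GL261 and B16 (-0.26 to 3.57, limma adjusted p = 0.974). For both tumors together it was 1.04 (-0.75 to 2.82, limma adjusted p = 0.521), with an exact permutation p of 0.333. These sizes moved with single libraries: without B16 replicate 1 the difference between the tumors was 0.68 and that for both tumors 1.59, and without Control replicates 1 and 2 in turn the latter was 0.50 and 1.61. The difference in B16 was 1.18 without B16 replicate 1 and turned to -0.32, -0.39 and -0.17 without Control replicate 1, B16 replicate 2 and B16 replicate 3. It was 0.0692 after rescaling to the same sum and 0.0683 after quantile normalization. With the number of genes above 0 as a covariate the sign turned, to -1.36 for both tumors, -0.92 for GL261 and -1.32 for B16. S1pr1 exceeded Spns2 in every library, by between 4.66 times in GL261 replicate 2 and 175 times in B16 replicate 1.

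The kinases, which phosphorylate sphingosine to S1P, had low and scattered values. Sphk1 had 7.55, 0 and 0 FPKM in Control, 0.564, 0.0971 and 12.6 in GL261, and 15.04, 0 and 0.406 in B16. In each group 1 library was high and the others were at or near 0. Sphk2 had 0, 5.64 and 0 FPKM in Control, 0.0803, 3.33 and 3.56 in GL261, and 8.26, 2.11 and 8.51 in B16. Both kinases overlapped between all groups. The difference between tumor-associated and Control MLECs was 0.48 on the log2 scale for Sphk1 (95% interval -1.91 to 2.86, limma adjusted p = 0.863) and 1.18 for Sphk2 (-0.76 to 3.11, limma adjusted p = 0.501). The exact permutation p was 0.512 for Sphk1 and 0.274 for Sphk2. The difference of Sphk2 was 0.72 without Control replicate 1 or 3 and 2.09 without Control replicate 2, and with a pseudocount of 0.1 it was 2.79. That of Sphk1 turned to -0.0406 without Control replicate 2 or 3, and was 1.30 with a pseudocount of 0.1 and 3.34 with the number of genes above 0 as a covariate.

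Of the genes that remove S1P, Sgpl1 and Sgpp1 were as low. Sgpl1, the lyase that cleaves S1P irreversibly, had 7.15, 6.54 and 0 FPKM in Control, 0.134, 5.76 and 3.14 in GL261, and 5.01, 5.09 and 5.36 in B16. The 3 B16 libraries lay close together, and the other groups spread from about 0 to their highest values. Sgpp1, a phosphatase that returns S1P to sphingosine, had 0, 7.91 and 1.87 FPKM in Control, 0, 4.06 and 7.36 in GL261, and 0, 4.19 and 8.16 in B16. Each group held 1 library listed at 0. The difference between tumor-associated and Control MLECs was 0.16 on the log2 scale for Sgpl1 (95% interval -1.77 to 2.10, limma adjusted p = 0.947) and 0.27 for Sgpp1 (-1.85 to 2.39, limma adjusted p = 0.916), and the exact permutation p was 0.976 and 0.714. Neither size was stable: leaving out 1 library moved Sgpl1 between -0.83 and 0.68 and Sgpp1 between -0.51 and 1.07, and with a pseudocount of 0.1 Sgpl1 differed by 0.80.

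By mean FPKM the order was S1pr1, Spns2, Sgpl1, Sphk1, Sgpp1, Sphk2, S1pr2 and S1pr3. Among the genes tested, Spns2 ranked 2686 (3984 by the Control mean), and Sgpl1, Sphk1, Sgpp1 and Sphk2 ranked 7138, 7254, 7438 and 7584. The last 4 overlapped with each other in every group, so that their order is not resolved by the spread over libraries, while S1pr1 was above each of the other 7 genes in all 9 libraries. Between 4 and 7 of the 8 genes were above 0 in a library, with 7 in GL261 replicate 2 and 4 in Control replicates 1 and 3.

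In the comparison of tumor-associated with Control MLECs, limma called 0 of the 6 S1P genes tested, where it called 391 of 9955 genes (3.93%), 289 higher and 102 lower. After quantile normalization the split over all genes was 238 higher and 145 lower, and without GL261 replicate 2 limma called 245 genes. At an unadjusted p under 0.05 there was 1 S1P gene, S1pr1, where 19% of the genes tested were, so that 1 of 6 is near the background. A power of the ROC curve above 0.4 on the deposited FPKM, with no error control, was reached by 4 of the 6 and by 51.6% of the genes tested. The study selected genes by ROC power within Seurat on normalized values, a procedure that was not repeated here. The median difference of the 6 was 0.76, beside 0.20 over all genes tested. With the number of genes above 0 as a covariate, limma called 13 genes in all. Each Control library has fewer genes above 0 than each tumor-associated library, so tumor status and the number of genes detected move together here.

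Each tumor was also compared with Control on its own, and both comparisons share the Control libraries. For GL261, limma called 0 of the 6 S1P genes and 3.49% of all genes tested, 257 higher and 90 lower, a split that became 173 and 111 after rescaling to the same sum and 187 and 107 after quantile normalization. For B16 it called 0 of the 6 and 2.11% of all, 160 higher and 50 lower. These shares rest on single libraries too: limma called 105 genes for GL261 without GL261 replicate 2, instead of 347, and 69 for B16 without B16 replicate 3, instead of 210. At an unadjusted p under 0.05 there was 1 S1P gene in each comparison, S1pr1, where 16.9% (GL261) and 15% (B16) of the genes tested were, so that these counts too are near the background. Its log2 difference was 0.90 for GL261 (95% interval 0.22 to 1.58, limma adjusted p = 0.153; 0.59 after rescaling to the same sum) and 1.24 for B16 (0.56 to 1.92, limma adjusted p = 0.0677). The B16 libraries did not overlap with Control for S1pr1 either, as for 10.2% of the genes tested with B16 higher, and 8.84% (GL261) and 7% (B16) of genes did not overlap with the tumor lower.

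Between the tumors themselves, limma called 0 of the 6 S1P genes, also 0 at an unadjusted p under 0.05 (5.5% of the genes tested), and 0.01% of all genes tested, which is 1 gene. S1pr1 differed by -0.34 on the log2 scale between GL261 and B16 (95% interval -1.02 to 0.33). For Sphk2 the difference was -1.23 (-3.45 to 0.99) and for Sgpl1 -0.96 (-3.22 to 1.31), and without GL261 replicate 1 they were -0.55 and -0.22, and with a pseudocount of 0.1 they were -2.05 and -1.68. For S1pr1 it was -0.19 without B16 replicate 1, -0.54 without B16 replicate 2 and -0.52 without GL261 replicate 1. Each interval over all libraries reaches below -1, so they do not show that the tumors are alike.

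**Figure D2:**
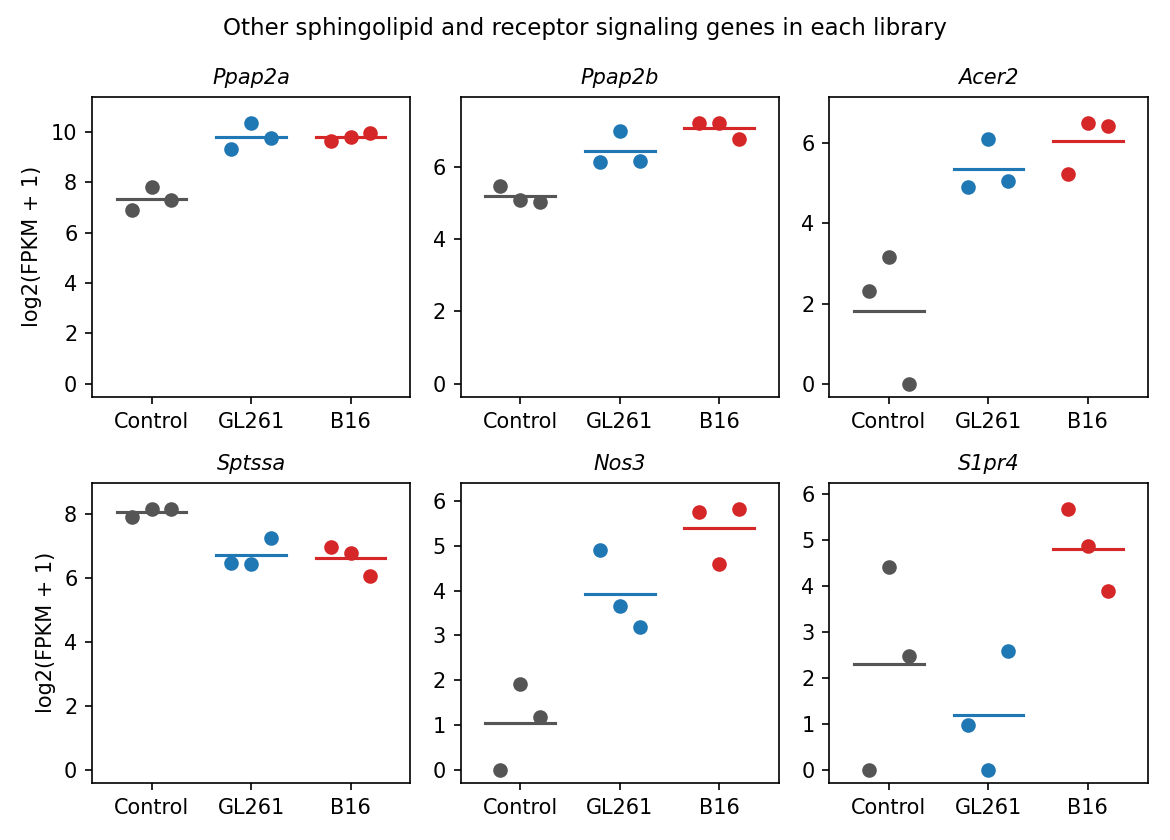
Level of 6 other genes as log2(FPKM + 1), with 1 point per library in replicate order and a line at the mean of the 3 libraries of a group. Ppap2a, Ppap2b, Acer2 and Nos3 are higher and Sptssa is lower in each tumor-associated library than in each Control library, and S1pr4 is higher in each B16 than in each GL261 library. Of all genes tested, 6.08%, 4.44% and 6.66% show these 3 patterns.

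Other genes of S1P and sphingolipid metabolism and of S1P receptor signaling were taken from 11 lists with 69 genes. Of these, 53 were tested and 10 were listed at 0 in all libraries. Between tumor-associated and Control MLECs, 4 rose and 1 fell, beside 3.93% of all genes tested, and the median difference of the 53 was 0.19, beside 0.20 over all genes tested. In GL261 2 rose and 0 fell, beside 3.49% of all genes called, and in B16 4 rose and 0 fell, beside 2.11%. With the number of genes above 0 as a covariate, none of these calls was met. The fits without 1 library gave 2 to 5 calls for both tumors, 1 to 2 in GL261 and 1 to 4 in B16. Over all alternatives, with that covariate among them, the log2 difference for both tumors was 2.10 to 2.72 for Ppap2a and 1.34 to 2.02 for Ppap2b. It was 2.97 to 5.11 for Acer2, 3.10 to 5.03 for Nos3 and -1.64 to -1.055 for Sptssa. Between the tumors 0 of the 53 were called by limma, with 2 at an unadjusted p under 0.05, beside 5.5% of all genes tested.

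The lipid phosphate phosphatases, enzymes at the cell surface that dephosphorylate S1P and related lipids, held 2 of the 4 genes that rose. Ppap2a, now named Plpp1, had 117, 224 and 154 FPKM in Control, 637, 1311 and 855 in GL261, and 795, 890 and 982 in B16. Control libraries averaged 165 ± 54.5 FPKM (SD, n = 3) and the libraries from both tumors 912 ± 227 (SD, n = 6). Among the genes tested it ranked 192 by the mean over all libraries and 584 by the Control mean. The log2 difference was 2.47 (standard error 0.28, limma adjusted p = 2.92e-04), which is 2.27 above the median of all genes, and it was 2.48 in GL261 and 2.47 in B16 (limma adjusted p = 0.00200 and 0.00254). Of the alternatives run, only the fit with the number of genes above 0 as a covariate ended these calls, with 2.10, 1.74 and 2.06 (limma adjusted p = 0.0690, 0.439 and 0.0960).

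Ppap2b, now named Plpp3, had 43.5, 32.9 and 31.2 FPKM in Control, 69.4, 126 and 70.3 in GL261, and 147, 147 and 108 in B16. In tumor-associated MLECs it rose by a log2 difference of 1.56 (standard error 0.38, limma adjusted p = 0.0392), higher in 6 of 6 libraries, and in B16 by 1.88 (limma adjusted p = 0.0395). In GL261 it differed by 1.24 (limma adjusted p = 0.138). The call for both tumors was not met in 7 of the 9 fits that left out 1 library, with limma adjusted p between 0.0585 and 0.0919, and the remaining fits left out GL261 replicate 1 or 3. The call in B16 was not met in 8 of those 9 fits, with limma adjusted p up to 0.121, and was met without Control replicate 1. Both calls were also lost after rescaling to the same sum (limma adjusted p = 0.0892 and 0.0565) and in eBayes without a trend (0.0947 and 0.102). The third gene tested of this list, Ppap2c, ranged from 0 to 37.4 FPKM, and Sgpp2 was listed at 0 throughout.

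Of the ceramidases, which release the sphingosine that the kinases use, 1 of 4 tested rose. Acer2, the Golgi alkaline ceramidase, had 3.94, 7.92 and 0 FPKM in Control, 28.8, 67.8 and 32.0 in GL261, and 36.7, 89.8 and 85.0 in B16. All 6 libraries from tumors exceeded all 3 Control libraries, as for 6.08% of the genes tested. The log2 difference was 3.88 (standard error 0.71, limma adjusted p = 0.00824). It was 3.53 in GL261 (limma adjusted p = 0.0405) and 4.24 in B16 (limma adjusted p = 0.0244). The call for both tumors held in all 9 fits that left out 1 library, while the call in GL261 did not hold in 7 of them (limma adjusted p up to 0.174, without GL261 replicate 2), and held in those without Control replicate 2 or B16 replicate 1. The call in B16 was not met without B16 replicate 2 or 3 (limma adjusted p = 0.0988 and 0.114). With a pseudocount of 0.1 and without a filter on low values, the calls in GL261 (limma adjusted p = 0.112 and 0.0852) and in B16 (0.0916 and 0.0644) were lost, and that in GL261 also after rescaling (0.0717) and without a trend (0.0681). With the number of genes above 0 as a covariate the difference for both tumors was 3.75 (limma adjusted p = 0.258).

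In de novo synthesis, 1 of 6 tested genes fell. Sptssa, a small activating subunit of serine palmitoyltransferase, had 239, 289 and 290 FPKM in Control, 88.0, 86.0 and 153 in GL261, and 126, 110 and 67.0 in B16. All 6 libraries from tumors were lower than all 3 Control libraries, as for 4.44% of the genes tested. The log2 difference was -1.41 (standard error 0.32, limma adjusted p = 0.0283), or -1.62 relative to the median of all genes. It differed by -1.36 in GL261 and -1.47 in B16 (limma adjusted p = 0.0782 and 0.0738). Both passed the threshold among genes with a mean FPKM of at least 10, and that in GL261 also after rescaling. The lowest limma adjusted p was 0.0484 in GL261 and 0.0483 in B16. For both tumors, the limma adjusted p was between 0.0547 and 0.0775 in 6 of the 9 fits without 1 library. These left out each Control library in turn, GL261 replicate 1 or 2, or B16 replicate 3. In eBayes without a trend the limma adjusted p for both tumors was 0.109.

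Among genes downstream of the receptors, 1 of 9 tested rose. Nos3, the endothelial nitric oxide synthase, had 0, 2.80 and 1.27 FPKM in Control, 29.0, 11.7 and 8.10 in GL261, and 53.0, 23.1 and 56.0 in B16. The log2 difference was 3.62 (standard error 0.76, limma adjusted p = 0.0186) for both tumors, 4.36 for B16 (limma adjusted p = 0.0183) and 2.88 for GL261 (limma adjusted p = 0.0820). Without Control replicate 1 the limma adjusted p for both tumors was 0.0664, and without B16 replicate 3 it was 0.0518. The call in B16 was not met without B16 replicate 1 or 3 (limma adjusted p = 0.0805 and 0.106), nor with a pseudocount of 0.1 (0.0506). Nos3 is also 1 of the 12 blood endothelial markers, and Nos3 and Acer2 were on a list the study drew from these same samples, so their direction is not independent evidence.

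The remaining lists held 0 called genes in limma in any of the 4 comparisons. They were the other receptors, the other carriers and transporters (3 of 6 tested), the ceramide synthases (3 of 6), the brakes on serine palmitoyltransferase (3 of 4), sphingomyelin and glucosylceramide turnover (7 of 9), the enzymes after the lyase (2 of 2), and receptor coupling and desensitization (12 of 13). Their median differences between tumor-associated and Control MLECs lay between -1.08 for the enzymes after the lyase and 0.70 for the other receptors. At an unadjusted p under 0.05 in that comparison there were 2 carriers or transporters, 2 genes of sphingomyelin and glucosylceramide turnover, 1 enzyme after the lyase and 1 gene of receptor coupling. Over the 11 lists joined there were 11 of 53, beside 19% of all genes tested. Cd69, whose product takes S1PR1 off the surface of lymphocytes, was above 0 in GL261 replicate 1 alone, with 0.0962 FPKM. Apom, the S1P carrier on lipoproteins, was listed at 0 in all libraries, and Mfsd2b, the S1P exporter of red cells and platelets, had 3.37 FPKM in B16 replicate 1 and 0 in the others.

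The genes whose log2(FPKM + 1) followed each S1P gene most closely over the 9 libraries were found by Pearson correlation, given as a description. The points share libraries and differ in the number of genes detected, and each S1P gene was compared with all other genes tested. For S1pr1 they were Ackr3 (r = 0.972), Ccdc94 (0.957) and Prmt1 (0.956), and the last 2 were listed at 0 in the 3 Control libraries. Ackr3, a scavenging chemokine receptor, had 0.458 to 8.44 FPKM in Control and 33.7 to 214 in tumor-associated libraries. For Spns2 they were Pcdh7 (0.957), Ifi47 (0.948) and Ppia (0.933). The closest to Sphk1 were Lrsam1, Nsl1 and Dnmt3b (0.982, 0.960 and 0.935), and to Sphk2 Vps37b, Btd and Abhd17a (0.985, 0.957 and 0.936). For Sgpl1 they were Msra, Mtdh and Msto1 (0.964, 0.920 and 0.911), and for Sgpp1 Lancl1, Fryl and Erf (0.915, 0.906 and 0.901). Among the 6 S1P genes tested, r between 2 of them lay between -0.58 for Spns2 with Sphk1 and 0.62 for Sphk2 with Sgpl1.

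By GENCODE M1, which uses mm9 coordinates, S1pr1 lies at chr3:115413351-115417973 on the minus strand with 2 exonic blocks and no overlapping gene. Spns2 lies at chr11:72265140-72303463 on the minus strand with 14 exonic blocks, and 131 of its exonic bases are shared with Mybbp1a on the other strand, which had 0 to 15.7 FPKM. Sphk2 lies at chr7:52964837-52973372 on the minus strand and shares 491 exonic bases with Dbp and 373 with Rpl18, both on the plus strand. Rpl18, a ribosomal protein gene, had 1054 to 1433 FPKM in Control and 1680 to 2272 in tumor-associated libraries. Dbp was listed at 0 in Control and had 1.20, 3.23 and 0 in GL261 and 6.10, 6.62 and 8.83 in B16. The protocol does not state that strand was kept, so reads of such pairs cannot be told apart, and the values of Sphk2 and its differences between groups are uncertain for that reason. Sphk1 lies at chr11:116392239-116397988, S1pr2 at chr9:20770396-20781237, S1pr3 at chr13:51503987-51518166, Sgpl1 at chr10:60561390-60610451 and Sgpp1 at chr12:76815235-76836716, each with no overlapping gene. Ppap2a, at chr13:113591102-113658089, shares 102 exonic bases with Skiv2l2, which had at most 33.8 FPKM. Nos3, at chr5:23870628-23890292, shares 1040 of its 4132 exonic bases with Gm15587 and 294 with Atg9b, both on the other strand. Atg9b had 0 to 2.96 FPKM. The values of Nos3 and its differences between groups are uncertain for the same reason as those of Sphk2.

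Promoters are shown for Spns2, the exporter, and for Acer2 and Ppap2b, 2 of the genes called higher for both tumors. RefSeq start sites on GRCm38.p6 were matched for 7 of the 8 S1P genes, all but S1pr1. Each line is the 250 bases before the start, 5′ to 3′ on the strand of the gene. Capitals mark CACCC, the core bound by Krüppel-like factors, or CCGGAA, an ETS core, on either strand. Spns2 is at chr11:72475028-72475277 (minus strand), Acer2 at chr4:86874164-86874413 (plus strand) and Ppap2b at chr4:105157097-105157346 (plus strand).
Spns2: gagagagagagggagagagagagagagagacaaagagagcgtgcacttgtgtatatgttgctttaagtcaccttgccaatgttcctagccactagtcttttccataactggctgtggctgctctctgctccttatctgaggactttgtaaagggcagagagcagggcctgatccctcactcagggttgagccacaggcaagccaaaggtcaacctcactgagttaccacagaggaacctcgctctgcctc
Acer2: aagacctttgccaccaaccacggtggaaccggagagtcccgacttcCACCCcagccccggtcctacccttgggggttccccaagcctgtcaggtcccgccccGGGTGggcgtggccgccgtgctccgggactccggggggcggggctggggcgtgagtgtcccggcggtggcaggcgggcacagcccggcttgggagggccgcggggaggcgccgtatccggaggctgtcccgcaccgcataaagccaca
Ppap2b: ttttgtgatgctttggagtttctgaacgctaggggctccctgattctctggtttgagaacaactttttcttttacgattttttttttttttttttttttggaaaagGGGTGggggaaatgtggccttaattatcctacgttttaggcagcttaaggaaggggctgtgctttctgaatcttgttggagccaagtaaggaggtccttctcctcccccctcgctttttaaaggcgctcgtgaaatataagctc
CACCC was found 0 times in the Spns2 window, 2 times in that of Acer2 and 1 time in that of Ppap2b, and CCGGAA in none of the 3. In the windows of the other 6 S1P genes matched, CACCC was found in at least 1 window of Sphk1 (up to 4 times), Sphk2, S1pr2 and S1pr3, and CCGGAA in at least 1 of Sphk1, Sphk2, S1pr2, Sgpl1 and Sgpp1. Of 32817 promoter windows of this length, 52.0% hold CACCC and 12.02% hold CCGGAA on either strand. A match to CACCC is therefore common, while one to CCGGAA is less so. The windows of the S1P genes were not tested against these shares, and a match is a description of the letters only.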

How the data were processed

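The methods of the study describe a modified protocol that adds a tail to the first-strand cDNA and amplifies it. The authors aligned the reads to mm9 with TopHat2 2.0.12 and computed expression with Cufflinks 2.2.1, per the methods and the submitters' processing notes. They deposited FPKM, a single value for each symbol in each library. The gene annotation is not given in the sources used here. The sample labels gave the groups and replicate numbers, and 0 columns were unused.

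The deposited FPKM were turned into log2(FPKM + 1) without further scaling. limma 3.58.1 in R 4.3.3 (lmFit, eBayes with a trend, Benjamini-Hochberg over 9955 genes) compared 6 tumor-associated with 3 Control libraries, and the single tumors in a fit of 3 groups. Single S1P genes were also compared by exact permutation tests. The code was tested on simulated data. Tables and figures used Python 3.11.15, numpy 2.4.6, pandas 2.3.3 and matplotlib 3.10.9.

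The members and lists were chosen with earlier results of these data known. The genes named are the 8 S1P genes, the genes of the wider lists that limma called against Control, Acer2, Nos3, Cd69, S1pr4, S1pr5, Apom and Mfsd2b whatever their values, the 3 genes most correlated with each S1P gene tested, and the most abundant gene and first 2 markers of each of 9 marker lists. Other list genes were named after their values were seen. Alternatives were another pseudocount, other filters, rescaling, quantile normalization, eBayes with no trend, a replicate block, the number of genes above 0 as a covariate, another grouping, and leaving out each library. For the genes outside the 8, and for the number called among them, these were added after seeing the data.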

Additional observations from a re-analysis of the deposited data

Results flagged for a closer look

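Among 12 genes above 0 in at least 2 of the 6 tumor-associated libraries, 2 had a library far from the others on the log2(FPKM + 1) scale, where chance flags about 1 in 20 groups. Spns2 had 2.74 FPKM in B16 replicate 1, and its gap to the next library was 0.690 of the whole range, above the critical value of 0.625. Sgpl1 had 0.134 FPKM in GL261 replicate 1 (0.725 of the range). S1pr2 had 2.01 FPKM in GL261 replicate 2 and was listed at 0 in the other 5, where the gap is the whole range whatever the value, so nothing is read from it.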

How the results depend on the processing

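Of 715 values of single genes under the alternatives (43 differences), 613 kept their sign and their side of the threshold of 0.05, 60 fell short of it, 6 came to pass it and 36 turned sign. None of the 36 had passed limma's threshold, and the cause was not tested. The number of S1P genes called for tumor-associated MLECs, 0, was 1 with a mean FPKM of at least 10 and 1 in the 3-group fit (S1pr1 each time), and 4 by ROC power. For B16 it was 1 with a mean FPKM of at least 10. In the fits that left out 1 library it was 0 in all 4 comparisons. Sphk1 could not be tested in 3 of the 9 fits without 1 library, nor with the stricter filter, which also left out Sphk2, Sgpl1 and Sgpp1.

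Without a filter on low values limma called 254, 218 and 135 genes (both tumors, GL261, B16), and with the number of genes above 0 as a covariate 13, 6 and 17. Leaving out 1 library gave 245 to 444, 105 to 363 and 69 to 274 genes, and 1 to 4 between the tumors, where quantile normalization gave 2 and eBayes without a trend 6. The called genes of the wider lists numbered 5, 2 and 4, with Nos3 among the 5 and the 4. With that covariate they numbered 0, 0 and 0, and 0 of their lists held a call instead of 4. They numbered 3 and 1 without a trend (both tumors, GL261), 1 and 2 with a pseudocount of 0.1 (GL261, B16) and 1 without a filter (GL261). With a mean FPKM of at least 10 they numbered 3 in GL261 and 5 in B16. Leaving out 1 library gave 2 to 5, 1 to 2 and 1 to 4.

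The replicate numbers do not pair the samples, since deviations of same-numbered libraries correlated between -0.0334 and 0.0443. With the replicate block limma called 303, 230, 146 and 1 genes in the 4 comparisons, 0 S1P genes, and 3 genes of the wider lists for both tumors. Ppap2b and Sptssa were not called for both tumors in it (limma adjusted p = 0.0661 and 0.0599), nor Ppap2b for B16 (0.0776).

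With the number of genes above 0 as a covariate, Spns2 turned to -1.36, -0.92 and -1.32 (both tumors, GL261, B16), Sgpp1 to -0.65, -1.68 and -0.75, and, in GL261, Sphk2 to -0.19 and Sgpl1 to 0.28. Sphk1 kept its sign there and moved to 3.34, 6.28 and 3.64, Sgpl1 moved to 1.05 for both tumors, Spns2 between the tumors to 0.39, and in GL261 Nos3 moved to 0.98 and Sptssa to -0.51. Sphk2 with a pseudocount of 0.1 was 1.77 in GL261 and 3.81 in B16, and without 1 library it was 0.11 to 1.47 and 1.33 to 2.70. Sphk1 between the tumors was -0.0912 after quantile normalization. In fits that left out 1 library, the ranges that crossed 0 were as follows. For both tumors they were -0.0406 to 0.78 (Sphk1), -0.83 to 0.68 (Sgpl1), -0.51 to 1.07 (Sgpp1) and -0.45 to 1.76 (S1pr4). For GL261 they were -0.0317 to 1.18 (Sphk1), -1.31 to 0.42 (Sgpl1) and -0.54 to 1.14 (Sgpp1). For B16 they were -0.39 to 1.18 (Spns2), -0.0495 to 1.22 (Sphk1), -0.35 to 1.16 (Sgpl1) and -0.48 to 1.23 (Sgpp1). Between the tumors they were -0.73 to 0.71 (Sphk1) and -0.98 to 0.84 (Sgpp1).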
